A study of Homo sapiens with 18 samples.

Results

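The genes described here are 10 members of the BCL-2 family, BCL2, BCL2L1, BCL2L2, MCL1, BAX, BAK1, BID, BBC3, PMAIP1 and BCL2L11. They were matched by name, with no measured value in the rule, although the family was proposed with earlier results of these data known. Each of the 10 symbols matched 1 of the 57500 genes of the count table. All 10 were among the 16994 genes with enough counts to be tested, and the lowest count of any member in any library was 50. RNA was sequenced from IMR90 cells, human lung fibroblasts, in 6 groups of 3 libraries. The groups were proliferating cells (Prol), cells made senescent by 20 Gy of X-rays (Sen (IR)), irradiated cells cleared of mitochondria with CCCP (Sen (IR) + CCCP), and such cleared cells given acetate, mtDNA, or acetate and mtDNA together.

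CCCP uncouples mitochondria, and per the study's methods the clearance used IMR90 cells that overexpress a transgene with which CCCP sets off mitophagy. In the methods of the clearance, irradiated cells took CCCP from day 1 for 48 h and sodium acetate at 20 mM followed from day 3. Cells of that protocol were collected on day 12. The methods of the transfection give acetate every other day and mtDNA (10 µg per 500000 cells) on day 10. They name no day of collection, so the time from transfection to collection is not known here. IMR90 cells were kept in 3% oxygen. The 4 CCCP groups therefore share irradiation, the transgene and the clearance. The labels name the cells of every group only as IMR90, and the sources used here do not say whether groups without mtDNA received the transfection reagent, so mtDNA and the transfection itself cannot be told apart. A figure legend in the study's supplementary material marks the senescent groups with and without clearance as carrying the transgene, which the labels do not state. CCCP itself and the loss of mitochondria cannot be told apart in the comparison of Sen (IR) + CCCP with Sen (IR).

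BCL-2 family proteins set whether the outer mitochondrial membrane is made permeable. BCL2, BCL-XL (from BCL2L1), BCL-W (from BCL2L2) and MCL1 are pro-survival members that hold the others in check, BAX and BAK (from BAK1) are the effectors that assemble into pores, and BID, PUMA (from BBC3), NOXA (from PMAIP1) and BIM (from BCL2L11) are BH3-only proteins that engage the pro-survival members or the effectors. Pores of BAX and BAK let cytochrome c and, in some settings, mtDNA out of mitochondria, and in senescent cells the family is known both for resistance to apoptosis and for limited permeabilization that feeds the senescence-associated secretory phenotype. Many of these proteins are regulated after translation, and protein was not measured here.

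Each of the 10 genes encodes a BH3 stretch. The coding stretch around it is shown because it lets the 3 roles be set side by side. The following 39 bases per gene were read from GENCODE v44 coding sequences on GRCh38, 5′ to 3′ on the coding strand, with capitals for the 6 codons that run from leucine or methionine over 3 codons of any kind to glycine or alanine and aspartate.
BCL2: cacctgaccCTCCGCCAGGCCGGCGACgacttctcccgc
BCL2L1: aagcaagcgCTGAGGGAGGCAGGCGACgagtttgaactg
BCL2L2: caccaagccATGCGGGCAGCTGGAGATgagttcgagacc
MCL1: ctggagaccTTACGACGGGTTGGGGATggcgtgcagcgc
BAX: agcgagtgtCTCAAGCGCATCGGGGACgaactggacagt
BAK1: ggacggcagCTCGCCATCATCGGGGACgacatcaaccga
BID: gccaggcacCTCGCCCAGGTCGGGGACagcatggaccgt
BBC3: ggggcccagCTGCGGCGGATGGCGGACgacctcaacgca
PMAIP1: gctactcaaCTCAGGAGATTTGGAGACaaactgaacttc
BCL2L11: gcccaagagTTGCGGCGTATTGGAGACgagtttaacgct

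The pattern in capitals matched once in the coding sequence of each of the 10 genes, and each stretch lay inside 1 coding exon. Of the 10 stretches, 9 held the glycine codon and 9 began with leucine, the exceptions being alanine in BBC3 and methionine in BCL2L2. Among the pro-survival genes the stretch lay at chr18:63318349-63318387 for BCL2 and chr20:31721922-31721960 for BCL2L1, both on the minus strand and in exon 2. It lay at chr14:23307894-23307932 on the plus strand in exon 3 of BCL2L2 and at chr1:150578865-150578903 on the minus strand in exon 1 of MCL1. For the effectors it lay at chr19:48955778-48955816 on the plus strand in exon 3 of BAX and at chr6:33575387-33575425 on the minus strand in exon 4 of BAK1. For the BH3-only genes it lay at chr22:17739415-17739453 in exon 4 of BID and chr19:47226579-47226617 in exon 3 of BBC3, both on the minus strand, and at chr18:59902664-59902702 in exon 2 of PMAIP1 and chr2:111150094-111150132 in exon 3 of BCL2L11, both on the plus strand. The coding sequences differ in length from 54 codons in PMAIP1, the smallest member, to 350 codons in MCL1.

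Total counts per library ranged from 24624886 to 46224280. Genes of mitochondrial DNA took 1.76% to 2.92% of the counts in Prol and Sen (IR) and 0.0463% to 0.238% in the 4 CCCP groups. Every library labelled CCCP thus had a lower share than any other. Shares were 0.114% to 0.136% in Sen (IR) + CCCP, 0.124% to 0.139% with acetate, 0.0463% to 0.0537% with mtDNA and 0.0626% to 0.238% with both. They are shares of RNA and do not measure the mitochondria left in a library's cells. All 9 fibroblast markers fixed for this work were tested, with a summed level of 15766 to 17800 TPM in Prol against 3783 to 5721 TPM in the CCCP groups, and all 9 were lower in Sen (IR) + CCCP than in Sen (IR). Of the markers of other cell types, PTPRC had at most 10 counts in any library, CD3E 1, PECAM1 8, CDH5 4 and CDH1 14. Others were higher, with up to 129 counts of EPCAM, 71 of CD68, 57 of KDR, 27 of CD14 and 23 of VWF. The 4 endothelial markers summed to 0.178 to 2.00 TPM, the 4 leukocyte markers to 1.81 to 5.34 TPM and the 4 epithelial markers, mostly KRT8 and KRT18, to 33.7 to 112 TPM per library. In bulk RNA, fewer cells of a type and less RNA per cell cannot be told apart. Replicate 3 of Sen (IR) and replicate 2 of acetate + mtDNA stood apart from their groups, with chi-square distances of 22.2 to 28.3 per gene to the other 2 libraries, which were 3.30 and 3.34 from each other. For the members, results that rest on these libraries are given with and without them, or as the values of each library. Values of single genes other than the members are given with all libraries only.

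Values are CPM, counts relative to the TMM-scaled size of their library, as mean ± SD of 3 libraries. Changes are log2 fold changes of edgeR's quasi-likelihood test with their SE and a p adjusted by Benjamini-Hochberg over all 16994 genes, and a change was called at an adjusted p under 0.05. The labels do not say that replicates came from separate cultures, so the p-values measure the spread between these libraries.

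Irradiation and clearance moved the family in both directions, whereas every member that changed with mtDNA rose. In Sen (IR) against Prol, 7 of the 10 genes passed the test, 3 higher and 4 lower, with 56.7% of all genes called (26.7% higher, 29.9% lower). In Sen (IR) + CCCP against Sen (IR), 8 of 10 passed, 5 higher and 3 lower, with 65.2% of all genes called (34% higher, 31.3% lower). With 10 genes, 7 and 8 calls are near the share of all genes called in these comparisons. The median change of the 10 was -0.01 with irradiation, where that of all genes was -0.01, and 0.35 with clearance, where that of all genes was 0.03.

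Among cleared cells, acetate changed 5 of 10 genes, 4 higher and 1 lower, with 57.1% of all genes called (28.8% higher, 28.3% lower). mtDNA changed 5 of 10, all higher, with 18.1% of all genes called (10.7% higher, 7.4% lower). The combination changed 5 of 10, all higher, with 61.7% of all genes called (30.3% higher, 31.4% lower). The median changes of the 10 genes were 0.06, 0.25 and 0.17, where those of all genes were 0.01, 0.00 and -0.04. Set against acetate alone, the combination changed 2 of 10, both higher, with 12.6% of all genes called (6.57% higher, 6% lower). Set against mtDNA alone it changed 3 of 10, 2 higher and 1 lower, with 57.4% of all genes called (27.4% higher, 29.9% lower). These comparisons share libraries, the 3 of Sen (IR) + CCCP among them, so that their counts are not independent.

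Set against Prol and Sen (IR), the CCCP groups held more members above than below. Against Prol, clearance alone changed 8 of 10, 6 higher and 2 lower, with 69.2% of all genes called (35.1% higher, 34.1% lower). Cleared cells with acetate changed 8 of 10, 7 higher and 1 lower (66.5% of all genes, 33.6% higher, 32.9% lower), those with mtDNA 9 of 10, 7 higher and 2 lower (70.7%, 36% higher, 34.7% lower), and those with both 8 of 10, 7 higher and 1 lower (66.8%, 32.7% higher, 34% lower). Against Sen (IR), acetate held 8 higher and 1 lower (65.9% of all genes, 33.2% higher, 32.7% lower), mtDNA 7 higher and 2 lower (67.5%, 35% higher, 32.5% lower), and the combination 9 higher and 1 lower, BID (66.9%, 32.2% higher, 34.7% lower). mtDNA against acetate, the remaining pair, held 7 higher and 2 lower (61.3%, 31% higher, 30.3% lower). These comparisons share libraries with each other, and none of them was rerun under the alternatives given below, other scales included.

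The scale mattered for small changes. With library totals in place of TMM the median change of all genes moved by 0.26 in Sen (IR) + CCCP against Sen (IR), by -0.12 with acetate, by -0.18 with the combination and by -0.11 in the combination against mtDNA, and on log2(TPM + 0.1) by 0.43 with clearance and by -0.13 with the combination. The alternatives were run on 8 comparisons, which leave out those of the preceding paragraph. Of the 36 calls over the 10 genes and these 8 comparisons, 25 kept their direction and their side of the threshold under every alternative run. The 11 others are named as such below.

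**Figure D1:**
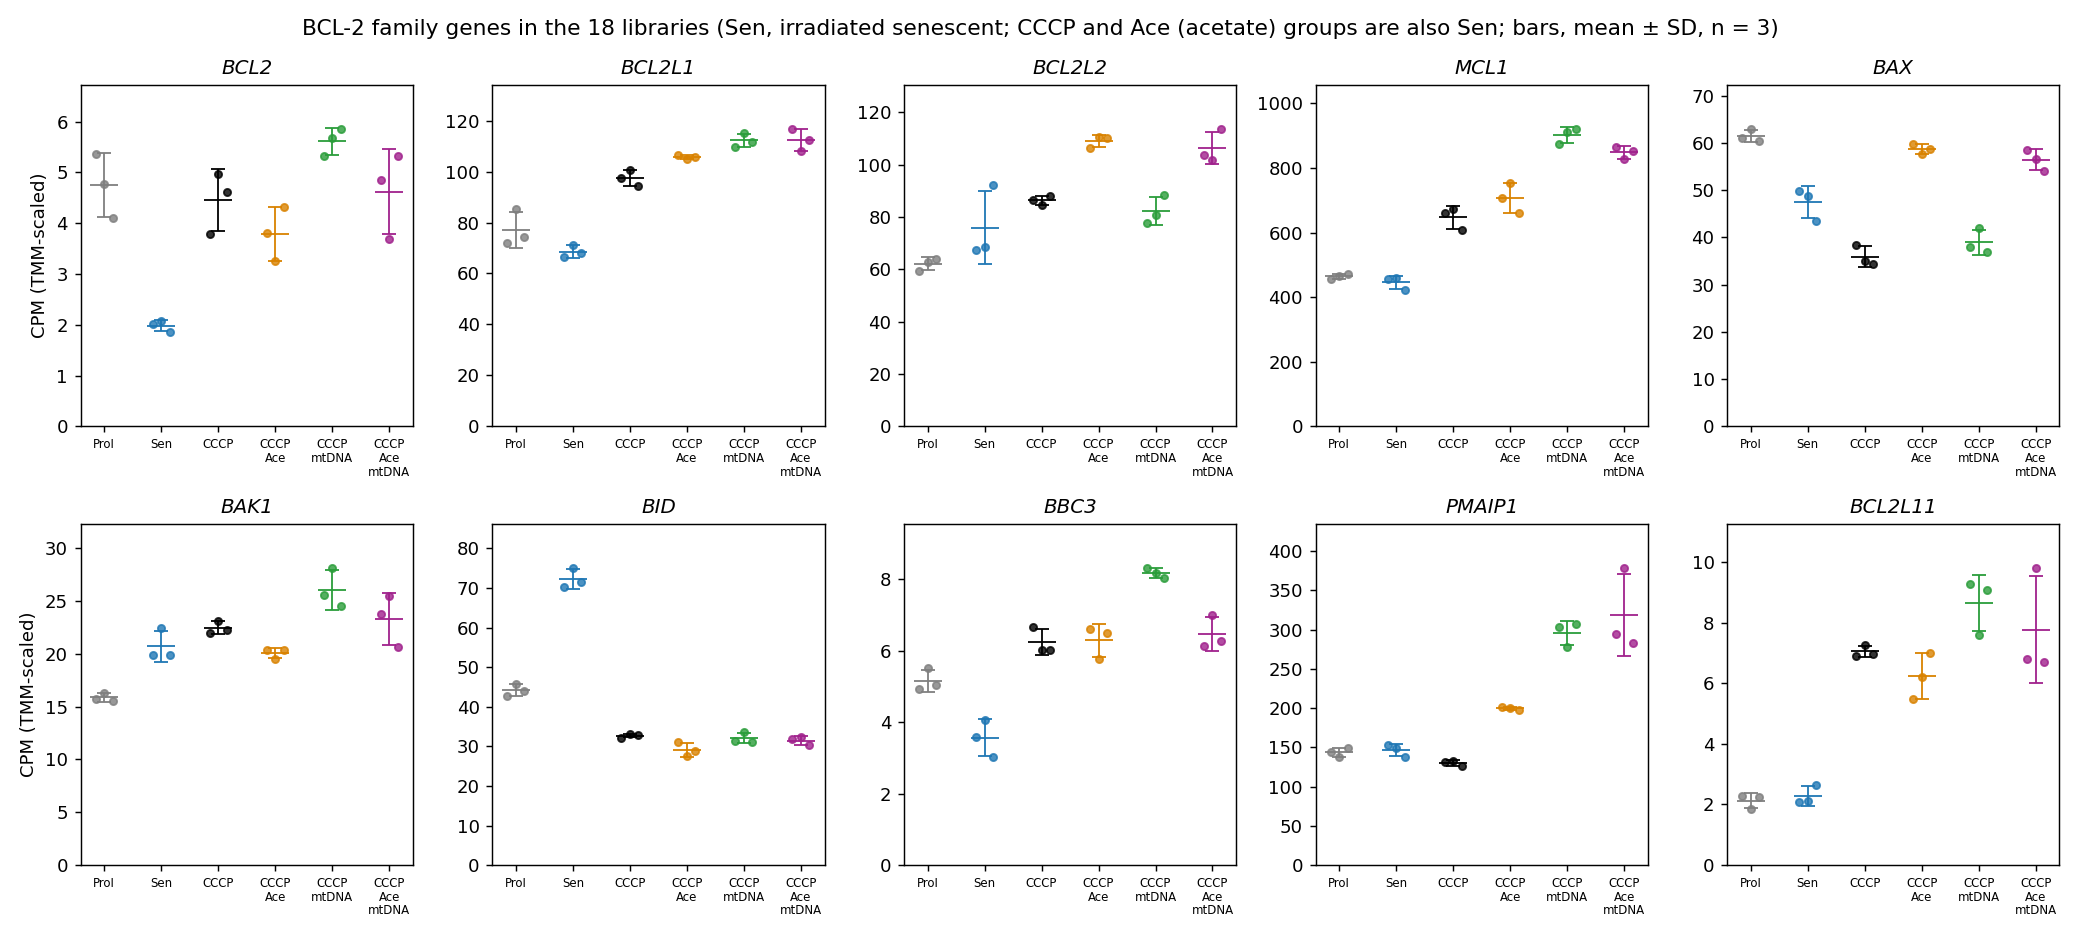
CPM of each of the 10 genes (y axis, from 0) in the 6 groups (x axis), with 1 point per library and the mean ± SD of 3. BID stands highest in Sen (IR), BCL2L11 is higher in the 4 CCCP groups than in Prol and Sen (IR), and PMAIP1 is higher in both mtDNA groups, at 278 to 378 CPM, than in any other.

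Of the pro-survival genes, BCL2 fell with irradiation and rose with clearance. It had 5.36, 4.78 and 4.11 CPM in the 3 Prol libraries and 2.02, 2.07 and 1.86 CPM in those of Sen (IR), so that every senescent library lay below every proliferating one. The change was -1.24 (SE 0.162, adjusted p = 1.01e-06). In Sen (IR) + CCCP the libraries stood at 3.79, 4.97 and 4.61 CPM, above all 3 of Sen (IR), a change of 1.17 (SE 0.161, adjusted p = 1.40e-06). These levels rest on 54 to 206 counts per library. Means were 3.80 ± 0.532 CPM with acetate, 5.61 ± 0.272 CPM with mtDNA and 4.62 ± 0.841 CPM with both, and no change from Sen (IR) + CCCP was called, that with acetate (-0.23) being called with library totals alone (-0.35, adjusted p = 0.0404). In the order of its 6 levels only Sen (IR), the lowest, differed from its neighbour, and the steps from acetate (3.80 CPM) over Sen (IR) + CCCP, the combination and Prol to mtDNA were each within the error. Over more than 1 step, mtDNA lay above acetate by 0.56 (adjusted p = 0.00172).

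MCL1, which is short-lived as a protein and is the partner that NOXA binds, had the highest level per length of the 10 in every group. It stood at 457, 466 and 471 CPM in Prol and at 455, 461 and 422 CPM in Sen (IR), which overlap, and its change of -0.06 (95% interval -0.17 to 0.05, adjusted p = 0.347) was not called. In Sen (IR) + CCCP it stood at 662, 672 and 608 CPM, every library above those of Sen (IR), with a change of 0.54 (SE 0.0527, adjusted p = 7.84e-09). With mtDNA it stood at 876, 912 and 919.6 CPM, again with no overlap, and rose by a further 0.48 (SE 0.0526, adjusted p = 7.23e-07). The combination, at 864, 827 and 854 CPM, lay above Sen (IR) + CCCP by 0.39 (SE 0.0525, adjusted p = 1.28e-06) and above acetate by 0.26 (SE 0.0525, adjusted p = 0.00178). With acetate alone the libraries, at 706, 754 and 660.1 CPM, overlapped those of Sen (IR) + CCCP, and the change of 0.13 (adjusted p = 0.0440) was lost under 5 alternatives. The order of its levels ran from Sen (IR) and Prol, whose difference was not called, over Sen (IR) + CCCP and acetate to the combination and mtDNA. The step between the last of these was not called (-0.09, adjusted p = 0.157), although every library of the combination lay below those of mtDNA, and it was called with library totals (-0.20, adjusted p = 0.0017) and on log2(TPM + 0.1) (-0.15, adjusted p = 0.0286).

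BCL2L1, whose product BCL-XL is a major survival factor of many cell types, rose with clearance. It ranged from 71.9 to 85.2 CPM in Prol, from 66.6 to 71.3 CPM in Sen (IR) and from 94.2 to 101 CPM in Sen (IR) + CCCP, and the last change was 0.51 (SE 0.0544, adjusted p = 3.17e-08). The fall with irradiation of -0.17 (adjusted p = 0.0122) was not called with library totals (-0.07), on log2(TPM + 0.1) (-0.08), with the compared groups alone (-0.13) or without Prol replicate 2 (-0.10). Means of 112 ± 2.67 CPM with mtDNA and 112 ± 4.14 CPM with the combination were above the 97.4 ± 3.17 CPM of Sen (IR) + CCCP by 0.20 (adjusted p = 0.0104) and 0.21 (adjusted p = 0.00220), and neither change was called with library totals or on log2(TPM + 0.1). With acetate the mean was 106 ± 0.744 CPM, and the change of 0.12 (adjusted p = 0.0699) was not called, although the 3 libraries lay above those of Sen (IR) + CCCP. It was called with the compared groups alone (0.10, adjusted p = 0.0205) and without Sen (IR) + CCCP replicate 2 (0.16, adjusted p = 0.0331).

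BCL2L2, the gene of BCL-W, rose with acetate. It stood at 86.7, 84.5 and 87.9 CPM in Sen (IR) + CCCP, at 106, 111 and 110.3 CPM with acetate, at 77.8, 80.9 and 88.4 CPM with mtDNA and at 104, 102 and 113 CPM with both. Both groups with acetate lay above both groups without it, with changes of 0.34 (SE 0.0812, adjusted p = 0.00120) for acetate alone and 0.37 (SE 0.0822, adjusted p = 5.81e-04) for the combination against mtDNA. The combination against Sen (IR) + CCCP, at 0.30 (adjusted p = 0.00297), was not called with library totals (0.12) or on log2(TPM + 0.1) (0.17). In Sen (IR) the libraries stood at 67.4, 68.5 and 92.1 CPM, the last being the replicate 3 that stood apart. With it the change from Prol was 0.29 (adjusted p = 0.00551) and that to Sen (IR) + CCCP 0.19 (adjusted p = 0.0530), and without it they were 0.12 (adjusted p = 0.0688) and 0.35 (adjusted p = 1.48e-05). The latter was also called with library totals (0.44), on log2(TPM + 0.1) (0.63) and without the filter on low counts (0.22). BCL2L2 shares exons with the read-through gene BCL2L2-PABPN1, which had 32 to 196 counts per library, and adding these counts changed no call.

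**Figure D2:**
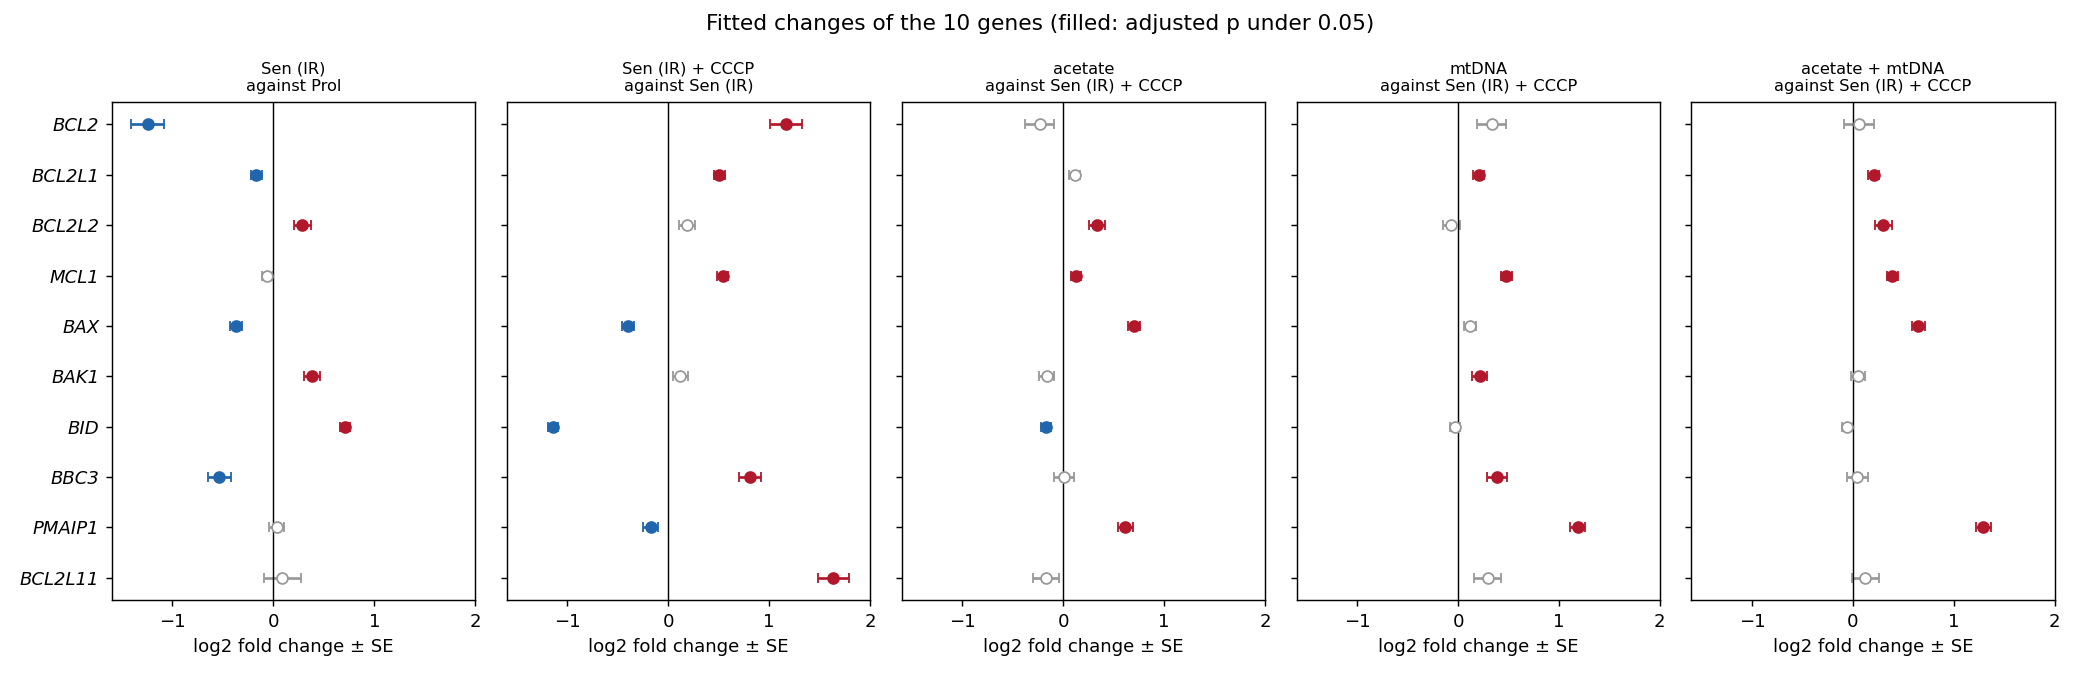
Log2 fold change ± SE of the 10 genes (rows) in 5 comparisons (panels), filled red (higher) or blue (lower) where the adjusted p is under 0.05 and open grey otherwise. BCL2L11 and BCL2 rise and BID falls by more than 1 with clearance, PMAIP1 rises by 1.19 with mtDNA, and the falls of BAX and PMAIP1 with clearance turn to 0.03 and 0.25 on log2(TPM + 0.1), where the median of all genes moves by 0.43.

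The effectors moved apart. BAX fell with irradiation and again with clearance, and rose with acetate. Its libraries stood at 61.1, 62.9 and 60.3 CPM in Prol, at 49.9, 48.9 and 43.5 CPM in Sen (IR) and at 38.5, 35.0 and 34.3 CPM in Sen (IR) + CCCP, with no overlap between neighbours. The changes were -0.37 (SE 0.0592, adjusted p = 1.41e-05) and -0.40 (SE 0.0603, adjusted p = 4.57e-06), the second being 0.03 on log2(TPM + 0.1). With acetate the libraries stood at 59.7, 57.6 and 58.8 CPM, every one above those of Sen (IR) + CCCP, a change of 0.71 (SE 0.0594, adjusted p = 1.26e-09) or 1.63-fold. With mtDNA they stood at 38.0, 42.0 and 36.9 CPM and overlapped Sen (IR) + CCCP (0.12, 95% interval -0.01 to 0.24, adjusted p = 0.217). With both they stood at 58.6, 56.5 and 54.1 CPM, above mtDNA alone by 0.53 (SE 0.0603, adjusted p = 1.19e-07) and not called against acetate alone (-0.06, 95% interval -0.18 to 0.07). The 6 levels of BAX thus fell into Sen (IR) + CCCP and mtDNA, then Sen (IR), then the combination, acetate and Prol, with no called difference between neighbours inside the first and the last of these sets.

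BAK1 took the opposite course to BAX with irradiation. It stood at 15.8, 16.3 and 15.5 CPM in Prol and at 19.9, 22.4 and 19.9 CPM in Sen (IR), with no overlap and a change of 0.38 (SE 0.0761, adjusted p = 1.87e-04). In Sen (IR) + CCCP it stood at 22.0, 23.1 and 22.2 CPM, and the change of 0.12 (95% interval -0.03 to 0.27, adjusted p = 0.161) was not called. It was called with library totals (0.38, adjusted p = 6.5e-05), on log2(TPM + 0.1) (0.54, adjusted p = 1.3e-06) and without Sen (IR) replicate 2 (0.19, adjusted p = 0.0440). Means were 20.1 ± 0.488 CPM with acetate, 26.0 ± 1.86 CPM with mtDNA and 23.3 ± 2.45 CPM with both. The rise with mtDNA of 0.21 (adjusted p = 0.0459) was lost under 9 of 16 alternatives, and the changes with acetate (-0.16, adjusted p = 0.0620) and with the combination (0.05, adjusted p = 0.569) were not called. That with acetate was called lower with library totals (-0.28, adjusted p = 0.0015), on log2(TPM + 0.1) (-0.26, adjusted p = 0.0032) and with the compared groups alone (-0.18, adjusted p = 0.0118). The combination against mtDNA was -0.16 (adjusted p = 0.0632), and it was called with library totals (-0.27, adjusted p = 0.0023), on log2(TPM + 0.1) (-0.22, adjusted p = 0.0082) and without replicate 2 of the combination (-0.21, adjusted p = 0.0217). mtDNA lay above acetate by 0.37 (adjusted p = 1.28e-04). Counts of BAK1P1, a processed pseudogene, reached 5 in a library at most.

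BID, which caspase-8 cleaves to an activator of BAX and BAK, was highest in senescent cells that kept their mitochondria. Its libraries stood at 42.8, 45.7 and 43.9 CPM in Prol, at 70.3, 75.0 and 71.5 CPM in Sen (IR) and at 32.2, 33.1 and 32.9 CPM in Sen (IR) + CCCP, 3 ranges without overlap. The rise with irradiation was 0.71 (SE 0.0513, adjusted p = 1.19e-10) and the fall with clearance -1.14 (SE 0.0519, adjusted p = 2.91e-14), to 0.453 of the level in Sen (IR). No rise was called in cleared cells with any treatment, with means of 29.2 ± 1.74, 32.1 ± 1.29 and 31.5 ± 1.06 CPM with acetate, mtDNA and both. With the combination its change was -0.06 (adjusted p = 0.367), and it was called with library totals (-0.24) and on log2(TPM + 0.1) (-0.19). Its fall with acetate of -0.17 (adjusted p = 0.00933) was lost with no filter on low counts and under 4 of the fits that left out 1 library. The 4 lowest of its 6 levels were the CCCP groups, with no called difference between neighbours, and the steps up to Prol and to Sen (IR) were both called.

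BBC3, the gene of PUMA and a p53 target, fell with irradiation and rose with clearance. It stood at 4.93, 5.52 and 5.04 CPM in Prol, at 3.59, 4.07 and 3.03 CPM in Sen (IR) and at 6.66, 6.03 and 6.02 CPM in Sen (IR) + CCCP. No library of one group overlapped another, and the changes were -0.54 (SE 0.113, adjusted p = 3.50e-04) and 0.81 (SE 0.109, adjusted p = 9.65e-07). With mtDNA it reached 8.31, 8.19 and 8.04 CPM, above every library of the other 5 groups, with a rise of 0.39 (SE 0.10, adjusted p = 0.00866) over Sen (IR) + CCCP. With mtDNA and acetate together it stood at 6.13, 7.01 and 6.27 CPM, below mtDNA alone by 0.34 (-0.34, SE 0.101, adjusted p = 0.00613). The test of that difference in the response to mtDNA, with acetate minus without it, gave -0.35 (SE 0.142, adjusted p = 0.331) and was not called.

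BCL2L11, the gene of BIM, rose with clearance and stayed above Prol and Sen (IR) in every CCCP group. Its libraries stood at 2.27, 1.85 and 2.26 CPM in Prol and at 2.09, 2.11 and 2.65 CPM in Sen (IR), which overlap (0.09, 95% interval -0.29 to 0.47, adjusted p = 0.706). In Sen (IR) + CCCP they stood at 6.91, 7.27 and 6.97 CPM, every one above all 6 of Prol and Sen (IR), a change of 1.63 (SE 0.155, adjusted p = 4.61e-09) or 3.10-fold. The means with acetate, mtDNA and both were 6.23 ± 0.758, 8.65 ± 0.931 and 7.76 ± 1.76 CPM, and no change from Sen (IR) + CCCP was called. Every mtDNA library lay above those of Sen (IR) + CCCP (0.29, adjusted p = 0.138). Between the treated groups, mtDNA was called above acetate by 0.46 (adjusted p = 0.00447). Within the combination, replicate 2, which stood apart, had 9.79 CPM where the others had 6.81 and 6.69 CPM. The change from Sen (IR) + CCCP was 0.12 with that library and -0.05 without it, and that from mtDNA was -0.17 (adjusted p = 0.290) with it and -0.34 (adjusted p = 0.0215) without it. These levels rest on 50 to 334 counts per library.

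PMAIP1, the gene of NOXA, whose protein binds MCL1, was the member that rose most with mtDNA. It stood at 144, 138 and 149 CPM in Prol, at 152, 149.7 and 138 CPM in Sen (IR) and at 132, 133 and 126 CPM in Sen (IR) + CCCP. The change with irradiation was not called (0.03, 95% interval -0.13 to 0.19, adjusted p = 0.742). The change with clearance of -0.17 (adjusted p = 0.0496) was at the threshold, was lost without 5 of the 6 libraries in turn, and was 0.09 with library totals and 0.25 on log2(TPM + 0.1). With acetate the libraries rose to 201, 200.1 and 197 CPM, a change of 0.62 (SE 0.0756, adjusted p = 3.81e-07) or 1.53-fold. With mtDNA they rose to 303, 278 and 307 CPM, a change of 1.19 (SE 0.0762, adjusted p = 3.66e-10) or 2.28-fold. With both they stood at 295, 378 and 283 CPM, 2.45-fold over Sen (IR) + CCCP (1.29, SE 0.0763, adjusted p = 3.17e-12), and overlapped mtDNA alone (0.11, 95% interval -0.05 to 0.26, adjusted p = 0.240). Without replicate 2 of the combination that difference was -0.02, and without its replicate 3 it was 0.20 (adjusted p = 0.0278).

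The rise of PMAIP1 with mtDNA was smaller on the log2 scale in the presence of acetate. mtDNA raised it by 1.19 without acetate and by 0.67 (SE 0.0750, adjusted p = 2.83e-06) with acetate. The test of the difference, the interaction of acetate and mtDNA, gave -0.51 (SE 0.106, adjusted p = 0.0251). PMAIP1 was the 1 member of 10 called in this test, which called 0.659% of all genes (0.0765% positive, 0.583% negative). Replicate 2 of the combination, the library with 378 CPM, brought this value closer to 0. Without it mtDNA raised PMAIP1 by 0.53 in the presence of acetate, and the interaction was -0.65 (adjusted p = 1.17e-06). In turn, 7 of the 12 fits without 1 library missed the threshold, at an adjusted p of up to 0.0725 and with values from -0.65 to -0.44, and a fit of the 4 groups concerned alone gave -0.51 (adjusted p = 0.0559). At an unadjusted p under 0.05 the interaction was negative in 3 members, PMAIP1, MCL1 (-0.22, adjusted p = 0.238) and BBC3.

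**Figure D3:**
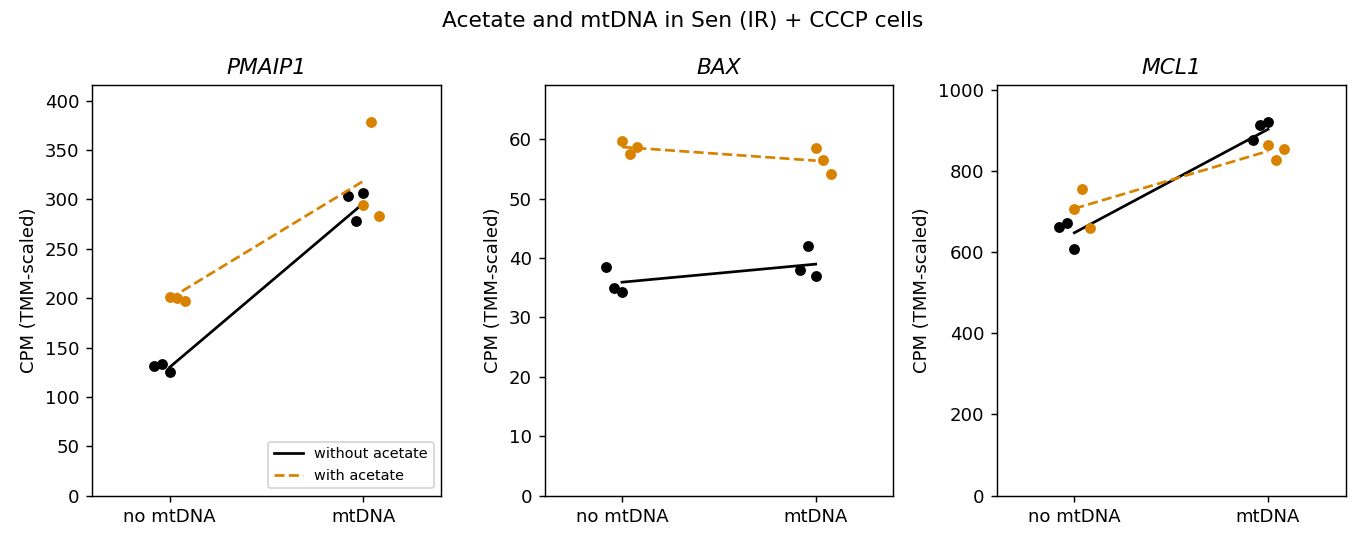
CPM (y axis, from 0) of PMAIP1, BAX and MCL1 in cleared senescent cells without and with mtDNA (x axis), without acetate (black, solid) and with acetate (orange, dashed), with 1 point per library and lines through the group means. PMAIP1 rises with either treatment, BAX with acetate (35.9 to 58.7 CPM) and MCL1 mainly with mtDNA (647 to 902 CPM).

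To compare the genes with each other, the authors' TPM, which divide by gene length, were used. MCL1 was the highest member in every group, from 401 ± 9.93 TPM in Prol to 1051 ± 30.7 TPM with mtDNA. PMAIP1 was the next, from 242 ± 4.81 TPM in Prol to 675 ± 35.2 TPM with mtDNA and 695 ± 101 TPM with both treatments. With both, its libraries stood at 650, 811 and 626 TPM, the value of 811 being replicate 2, which stood apart. Together MCL1 and PMAIP1 made up 67.7% ± 1.14 of the summed TPM of the 10 in Prol and 78.7% ± 0.695 with mtDNA. At the low end BCL2 had 0.671 ± 0.0291 TPM in Sen (IR) and 2.43 ± 0.126 TPM with mtDNA, and BCL2L11 1.20 ± 0.114 TPM in Prol and 6.61 ± 0.708 TPM with mtDNA. The summed TPM of the 4 pro-survival genes were 562 ± 5.22 in Sen (IR) and 1063 ± 46.1 in Sen (IR) + CCCP. The 2 effectors summed to 110.3 ± 5.30 and 129 ± 4.39 TPM in these groups, and the 4 BH3-only genes to 332 ± 10.3 and 367 ± 9.84 TPM. TPM of all genes shift between these groups, as given above, and the ratios within a library do not depend on that scale.

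**Figure D4:**
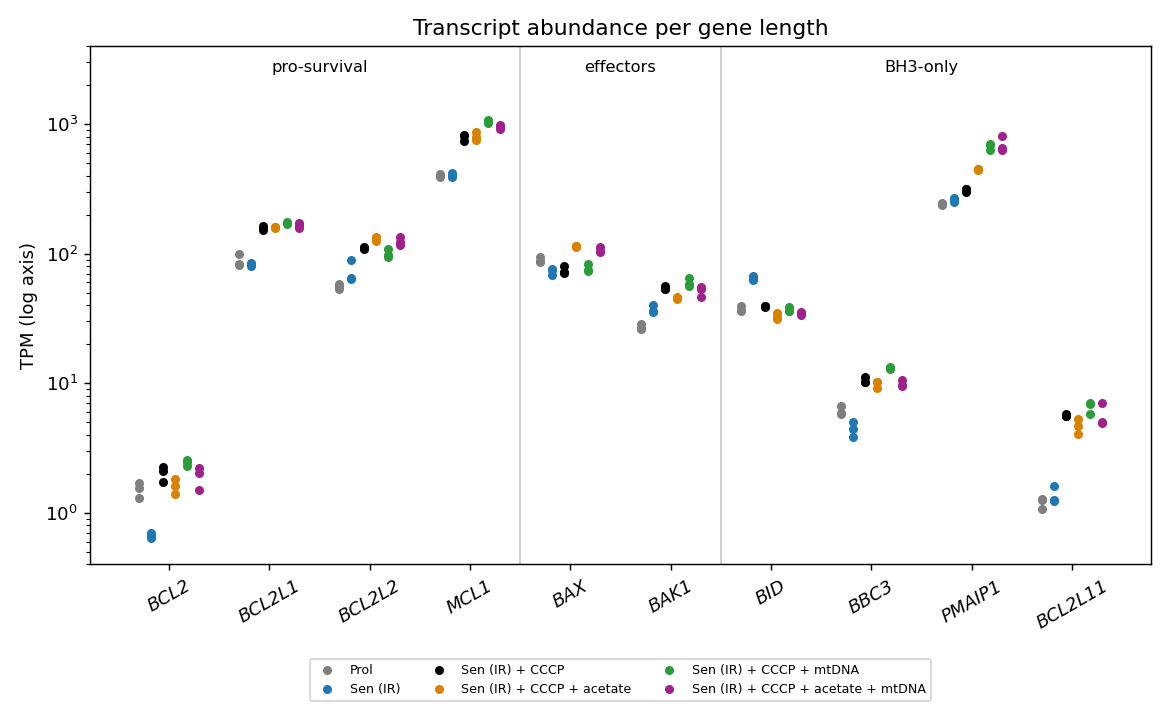
TPM on a log axis (y) of the 10 genes by role (x), with 1 point per library coloured by group. MCL1 and PMAIP1 lie at 237 TPM or more in every library, while BCL2 and BCL2L11 reach 7.08 TPM at most.

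Ratios within libraries are descriptions, with no test. Pro-survival over BH3-only TPM was 1.91 ± 0.0817 in Prol, 1.69 ± 0.0585 in Sen (IR) and 2.89 ± 0.0489 in Sen (IR) + CCCP. It was 2.23 ± 0.105, 1.82 ± 0.110 and 1.69 ± 0.280 with acetate, mtDNA and both. The libraries of the combination stood at 1.82, 1.37 and 1.88, the value of 1.37 being replicate 2, which stood apart. Its other libraries lay within the range with mtDNA, 1.72 to 1.94. The 3 libraries of Sen (IR) + CCCP, at 2.84 to 2.93, lay above the 15 others. MCL1 over PMAIP1 was 1.66 ± 0.0630 in Prol, 1.55 ± 0.0245 in Sen (IR), 2.54 ± 0.0608 in Sen (IR) + CCCP, 1.81 ± 0.110 with acetate, 1.56 ± 0.102 with mtDNA and 1.39 ± 0.234 with both. The last of these reached from 1.12, in replicate 2, to 1.54. BAX over BAK1 was 3.31 ± 0.0170 in Prol, 1.96 ± 0.160 in Sen (IR) and 1.37 ± 0.112 in Sen (IR) + CCCP. It was 2.5 ± 0.0319 and 2.08 ± 0.174 in the groups with acetate and 1.28 ± 0.0103 with mtDNA alone, so that the groups with acetate did not overlap those of cleared cells without it. BCL2L11 over BCL2 was 0.802 ± 0.151 in Prol, 2.05 ± 0.408 in Sen (IR) and 2.83 ± 0.346 in Sen (IR) + CCCP.

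Other homologues and BH3-only genes of the family had levels too low to test in 5 of 13, BCL2A1, BCL2L10, BCL2L14, BCL2L15 and BIK, with at most 21 counts in any library. Of the 8 tested, 2 rose and 3 fell with irradiation, 4 rose and 1 fell with clearance, 2 rose and 3 fell with acetate, and 2 rose with mtDNA. Of all genes, 56.7%, 65.2%, 57.1% and 18.1% were called in these comparisons, in that order. BMF, a BH3-only gene, had 21.5 ± 1.58 CPM in Prol, 4.99 ± 0.525 in Sen (IR), 10.6 ± 0.358 in Sen (IR) + CCCP, 22.9 ± 1.43 with acetate, 10.6 ± 0.647 with mtDNA and 22.3 ± 4.49 with both. It fell by 2.11 with irradiation (-2.11, SE 0.120, adjusted p = 2.49e-12) and rose by 1.08 with clearance and by 1.11 with acetate (adjusted p = 1.08e-07 and 1.01e-08). HRK, a BH3-only gene best known from neurons, had 0 to 1 counts per library in Prol, 5 to 8 in Sen (IR), 19 to 30 in Sen (IR) + CCCP, 0 to 5 with acetate, 64 to 89 with mtDNA and 2 to 8 with both. Its libraries with mtDNA alone stood above every other library. BCL2L13, a homologue that also acts as a mitophagy receptor, rose with mtDNA by 0.66 (SE 0.0670, adjusted p = 2.11e-07), and BOK, an effector-like member, fell by 0.77 with irradiation (-0.77, adjusted p = 1.78e-08) and by 0.64 with clearance (-0.64, adjusted p = 4.06e-07).

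Downstream of the pore lie the proteins released from mitochondria, APAF1, caspases and their inhibitors. All 12 genes of this list were tested. With irradiation 3 rose and 3 fell, with clearance 4 rose and 4 fell, with acetate 5 rose and 3 fell, with mtDNA 2 rose and 1 fell, and with both 4 rose and 4 fell. The shares of all genes called were 56.7%, 65.2%, 57.1%, 18.1% and 61.7%, in that order. BIRC3, an inhibitor of apoptosis and a target of NF-κB, had 61.3 ± 6.96 CPM in Sen (IR) and 15.6 ± 1.64 CPM in Sen (IR) + CCCP, a change of -1.97 (SE 0.0841, adjusted p = 1.14e-14). It stood at 73.2 ± 7.03 CPM with acetate, 43.8 ± 1.84 CPM with mtDNA and 119 ± 2.92 CPM with both. XIAP, which inhibits caspases directly, rose by 0.67 with clearance (SE 0.0511, adjusted p = 1.27e-10) and by 0.26 with mtDNA (SE 0.0505, adjusted p = 8.63e-04). APAF1, the scaffold of the apoptosome, fell by 0.51 with both treatments (-0.51, SE 0.0505, adjusted p = 1.51e-08).

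All 8 genes of outer-membrane partners, channels and import receptors were tested. All 8 fell with acetate, with a median change of -0.24, and all 8 fell with the combination against mtDNA alone, with a median of -0.34, where the medians of all genes were 0.01 and -0.02. Of all genes, 28.3% and 29.9% were called lower in these comparisons. TOMM22, an import receptor, fell by 0.45 with acetate (-0.45, SE 0.0554, adjusted p = 3.81e-07) and MTCH2, which binds truncated BID, by 0.37 (-0.37, SE 0.0407, adjusted p = 9.27e-08). None of the 8 was called with mtDNA in edgeR's test, with 1 at an unadjusted p under 0.05, MARCHF5 (0.14, adjusted p = 0.0649), a ubiquitin ligase of the outer membrane named after its values were seen. With clearance 3 rose, among them TOMM22 by 0.59 (SE 0.0562, adjusted p = 4.69e-09), and 1 fell. The share of all genes called was 18.1% with mtDNA and 65.2% with clearance.

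Of 4 genes that act on the turnover of MCL1 protein, none was called with acetate or with mtDNA in edgeR's test, with 1 and 0 of them at an unadjusted p under 0.05. With clearance 3 rose and 1 fell, among them the ubiquitin ligase HUWE1 by 0.42 (SE 0.135, adjusted p = 0.00880), which had fallen by 0.49 with irradiation (-0.49, adjusted p = 0.00390). With irradiation 1 rose and 2 fell, and BTRC, another ligase subunit, rose by 0.65 (SE 0.0489, adjusted p = 2.57e-10). The share of all genes called was 57.1% with acetate, 18.1% with mtDNA, 65.2% with clearance and 56.7% with irradiation.

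Of 7 transcription factors known to act on members of the family, 6 were tested, and 5 rose and 1 fell with clearance. ATF4 rose by 1.88 (SE 0.0623, adjusted p = 2.47e-16), DDIT3, the gene of CHOP, by 1.47 (SE 0.0571, adjusted p = 2.39e-15), ATF3 by 1.44 (SE 0.0988, adjusted p = 2.39e-11) and FOXO1 by 1.41 (SE 0.356, adjusted p = 0.00144). FOXO1 had only 2 to 50 counts per library, at most 1.33 CPM, so its change rests on low counts. With irradiation 4 rose and 2 fell, with acetate 1 rose and 1 fell, and with mtDNA 3 rose, ATF3 by 0.76 (SE 0.0953, adjusted p = 4.82e-06). Of 10 targets of p53 outside the family, 3 rose and 6 fell with irradiation, 6 rose and 1 fell with clearance, 6 rose and 1 fell with acetate, and 1 rose and 3 fell with mtDNA. Beside both lists, 56.7% of all genes were called with irradiation, 65.2% with clearance, 57.1% with acetate and 18.1% with mtDNA. CDKN1A, the gene of p21, rose by 0.50 with irradiation and by 0.75 with acetate (SE 0.0501, adjusted p = 2.81e-11), and TNFRSF10B, a death receptor, fell by 0.69 with clearance (-0.69, adjusted p = 8.92e-11) and rose by 0.88 with acetate (SE 0.0517, adjusted p = 3.70e-12). FDXR, a ferredoxin reductase, fell by 0.68 with mtDNA (-0.68, adjusted p = 1.55e-06).

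Proliferation and senescence markers moved with the groups too, and their part in the results above was not tested. MKI67 changed by -1.95 with irradiation, by 1.00 with clearance and by -3.23 with acetate, and CDKN2A by 0.60, -0.03 and 0.40, the middle value not called. Of the 6 state markers 2 rose and 4 fell with irradiation, 5 rose with clearance, 2 rose and 4 fell with acetate, and 1 rose and 1 fell with mtDNA. The shares of all genes called were 56.7%, 65.2%, 57.1% and 18.1%, in that order.

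The genes whose pattern over the 18 libraries was most like that of the 3 members with the widest range of levels were found by the root mean square difference of centred log2 CPM. For BCL2L11 they were PPP1R15A (0.182), SIPA1L2 (0.192) and PPTC7 (0.243). For BCL2 they were ZNF496 (0.201), RIF1 (0.201) and SFMBT1 (0.209). For BID they were NXN (0.0803), DNAJB4 (0.0905) and ERLEC1 (0.0959). The ranges of the group means that these differences stand against were 1.99 for BCL2L11, 1.47 for BCL2 and 1.31 for BID on the log2 scale.

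The upstream sequences of PMAIP1, which rose with mtDNA and acetate, and of BCL2L11, which rose with clearance, are shown as context, from RefSeq on GRCh38.p14. They cover the 250 bases before the start annotated in RefSeq, on the plus strand for both genes, and a motif match is in capitals. In GENCODE v44 the gene BCL2L11 begins earlier, at chr2:111119378, so that its window lies inside that gene. The table held 8 of the 10 members.
PMAIP1, chr18:59899746-59899995: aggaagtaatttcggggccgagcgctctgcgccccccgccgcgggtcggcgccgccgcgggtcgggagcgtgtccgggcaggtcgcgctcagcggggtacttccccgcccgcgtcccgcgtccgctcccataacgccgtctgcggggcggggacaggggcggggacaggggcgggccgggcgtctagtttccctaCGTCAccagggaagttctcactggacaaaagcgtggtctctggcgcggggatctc
BCL2L11, chr2:111120664-111120913: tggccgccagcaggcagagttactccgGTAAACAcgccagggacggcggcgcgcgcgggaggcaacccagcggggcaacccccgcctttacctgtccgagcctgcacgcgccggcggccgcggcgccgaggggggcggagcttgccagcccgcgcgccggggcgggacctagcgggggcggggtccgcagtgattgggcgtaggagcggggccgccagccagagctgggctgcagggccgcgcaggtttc

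In PMAIP1 the match is TGACG, the CRE half-site that ATF factors bind, read on the opposite strand and beginning 55 bases before the start. It occurs in 21.2% of the 35116 RefSeq promoters and in 4 of the 8 members searched. In BCL2L11 the match is GTAAACA, the FOXO core, 223 bases before the start, which occurs in 3.0% of promoters and in 1 member. Both strands were searched for 7 motifs, none of which contains another. Of the others, TGANTCA (AP-1) occurred in BBC3 alone among the 8 (6.6% of promoters) and the p53 half-site in BAK1 alone (5.6%), while the ISRE core (3.0%), TGATGCAA (the composite of CHOP and ATF4, 0.8%) and the NF-κB consensus (10%) had no match in these windows. A match is a description of the sequence and not a measured site.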

How the data were processed

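RNA-seq libraries (18, in 6 groups of 3) were assigned to groups by their labels, which left 0 table columns unassigned. Per the labels and methods, reads of 2 × 150 bases were trimmed with Trimmomatic 0.36, aligned to GRCh38 with STAR 2.5.2b and counted with featureCounts of Subread 1.5.2. The authors deposited raw counts of each gene. A second table deposited by the authors holds TPM, scaled to gene length and library size. Strandedness of counting is not given in the sources used here, so genes overlapping on opposite strands cannot be told apart, and isoforms share 1 count.

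edgeR 4.0.16 (R 4.3.3) was fitted to all libraries with 6 group means (quasi-likelihood test, TMM, filterByExpr, no replicate block, 16994 genes, Benjamini-Hochberg adjustment, threshold 0.05). The interaction subtracts the effect of mtDNA without acetate from its effect with acetate. Replicate numbers did not pair the libraries. Totals of 24624886 to 46224280 counts set the precision, and intervals cover the spread between libraries.

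Members, gene lists, motifs and comparisons were chosen with earlier results of these data known. All 10 members were named, with up to 4 genes of each list by the size of their called change. Levels were ordered by mean CPM and neighbours tested in the same model. Likeness was the root mean square difference of log2 CPM, for the 3 members of widest range. Some genes of the lists are not reported here. HRK is given by counts because some libraries are at 0. MARCHF5 is written as a date in the tables and was identified by its Ensembl identifier.

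The alternatives were DESeq2 size factors, library totals, the Wald test of DESeq2 1.42.0, dropping the filter, requiring 10 counts in each library (13249 genes), removal of mitochondrially encoded genes, fits to the compared groups alone, a replicate block, leaving out each library, and adding the counts of BCL2L2-PABPN1 or BAK1P1. limma 3.58.1 on log2(TPM + 0.1) was chosen after seeing the data. The procedure was tested on simulated data for Sen (IR) against Prol alone. It recovered 68.2% of simulated log2 changes of 0.5, 94.0% of those of 1 and 100% of those of 2. In the simulation 15546 of 15746 genes were left unchanged, whereas 56.7% of all genes were called in this comparison of the data. These rates therefore do not cover data in which most genes change or the scale shifts. Smaller changes were not simulated.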

Additional observations from a re-analysis of the deposited data

Results flagged for a closer look

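The response of PMAIP1 to mtDNA differed with and without acetate in a test of the difference itself, with a call close to the threshold. The effect of mtDNA with acetate less the effect without it was -0.51 on the log2 scale (SE 0.106, edgeR's quasi-likelihood test, adjusted p = 0.0251), with 3 libraries in each of the 4 groups. It missed the threshold in 7 of 12 fits without 1 library (adjusted p up to 0.0725) and with the 4 groups alone (adjusted p = 0.0559). Without replicate 2 of the combination, which stood apart from its group, it was -0.65 (adjusted p = 1.17e-06). All 6 libraries with mtDNA lay above all 6 cleared libraries without it. Groups of 3 libraries are too small for a test of single libraries that lie far from their group.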

How the results depend on the processing

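Of the 36 calls over members, 25 held under every alternative run. The number of members past the threshold moved by over 1.5 times in these cases: with mtDNA, from 5 to 3 with library totals and on log2(TPM + 0.1); in the combination against mtDNA, from 3 to 7 and 5 on these scales and to 3 to 5 without 1 library (5 without replicate 2 of the combination); with acetate, from 5 to 3 without the filter and to 3 to 5 without 1 library (3 without replicate 3 of Sen (IR) + CCCP). In the interaction it went from 1 to 0 with the compared groups alone (edgeR, 3 members at an unadjusted p under 0.05, and 1 called by DESeq2) and to 0 to 1 without 1 library, where all genes called, 112, became 258 (DESeq2), 413 (no filter) and 55 to 403 (without 1 library, the lowest without replicate 3 of Sen (IR) + CCCP and the highest without replicate 2 of the combination). All genes called in the combination against acetate, 2136, became 1241 to 1882 without 1 library, the lowest without replicate 2 of acetate.

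Some values changed sign, and for each the cause was not tested. With library totals these were 0.034 for MCL1 with irradiation, 0.087 for PMAIP1 with clearance (adjusted p = 0.283), -0.0062 and -0.11 for BCL2L1 and BBC3 with acetate, -0.12, -0.13, -0.13 and -0.054 for BCL2, BAK1, BBC3 and BCL2L11 with the combination, -0.019 for BBC3 in the combination against acetate, and -0.11 and -0.0065 for BCL2L1 and PMAIP1 in the combination against mtDNA. On log2(TPM + 0.1) these were 0.020 for MCL1 with irradiation, 0.028 and 0.25 for BAX and PMAIP1 with clearance (the latter called, adjusted p = 0.0045), -0.086 for BBC3 with acetate, -0.084, -0.086, -0.081 and -0.016 for BCL2, BAK1, BBC3 and BCL2L11 with the combination, and -0.058 for BCL2L1 in the combination against mtDNA. BBC3 with acetate was -0.0076 with the compared groups alone. The interactions of BAK1 and BCL2L11, near 0, became 0.028 and 0.028 with DESeq2 size factors, 0.010 and 0.0088 with library totals, 0.0061 and 0.0056 with the stricter filter, 0.0034 and 0.0015 with the compared groups alone, 0.030 and 0.038 with DESeq2, and 0.034 and 0.049 on log2(TPM + 0.1). That of BAK1 was 0.00034 without the filter and 0.0023 with BAK1P1 added.

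Leaving out 1 library spanned 0 for PMAIP1 (-0.0039 to 0.070) and BCL2L11 (-0.030 to 0.16) with irradiation, BBC3 with acetate (-0.0019 to 0.092), BID with mtDNA (-0.055 to 0.0012), BCL2 (-0.023 to 0.20) and BCL2L11 (-0.050 to 0.24) with the combination, BBC3 in the combination against acetate (-0.022 to 0.079), BCL2L1 (-0.0096 to 0.043), BID (-0.033 to 0.023) and PMAIP1 (-0.021 to 0.20) in the combination against mtDNA, and the interactions of BCL2 (-0.15 to 0.085), BCL2L2 (-0.023 to 0.078), BAK1 (-0.062 to 0.071) and BCL2L11 (-0.19 to 0.088).

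Replicate numbers did not pair the libraries: correlations of deviations over 45 same-numbered pairs ran from -0.082 to 0.092, with 0 over 0.1 and 15 pairs highest for their own number. With a replicate block, PMAIP1 with clearance was lost (adjusted p = 0.0507), the interaction of BCL2L11 was 0.0067, and 4 calls were gained: BCL2L2 with clearance (adjusted p = 0.0142) and BAK1 with acetate (0.0435), in the combination against acetate (0.0402) and against mtDNA (0.0405).

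The share of calls that were higher moved with the scale, with library totals and on log2(TPM + 0.1) respectively: from 47.1% to 58.2% and 56.8% with irradiation, from 52.1% to 70.6% and 78.8% with clearance, from 50.5% to 37.1% and 39.4% with acetate, from 59.1% to 35.7% and 34.5% with mtDNA, from 49.1% to 32.3% and 36.0% with the combination, from 52.2% to 29.1% and 35.7% (64.7% with DESeq2 size factors) in the combination against acetate, and from 47.8% to 36.2% and 41.1% against mtDNA. In the interaction it went from 11.6% to 28.4% on log2(TPM + 0.1). With library totals, BCL2 (-0.38) and BID (-0.14) were also called in the combination against mtDNA, and BAK1 in the combination against acetate was called with DESeq2 size factors (0.24), with DESeq2 (0.25) and without replicate 3 of the combination (0.29). Counts of 50 to 334 for BCL2L11 and 54 to 206 for BCL2 limit their precision.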
